A study of Mus musculus with 4 samples.

Results

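Replication-dependent histone genes encode the linker histone H1 and the core histones H2A, H2B, H3 and H4 that package newly copied DNA. Here they are the 67 of 32285 genes in the deposited tables whose symbol starts with Hist1h, Hist2h, Hist3h or Hist4h, a choice made by name and not by level. By family they comprise 6 H1, 18 H2A, 18 H2B, 12 H3 and 13 H4 genes. They were measured in live T cells sorted from tumour-draining lymph nodes after inoculation of MC38-OVA, a colon carcinoma line of the mouse that carries ovalbumin. There were 4 droplet 5′ single-cell libraries. WT-CTRL had the genotype label Control and control treatment. WT-DOX had the same genotype label and doxorubicin, an anthracycline that poisons topoisomerase and breaks DNA. KO-CTRL had the genotype label PD-L1 knockout and control treatment, and KO-DOX combined that knockout with doxorubicin. Sets of 4 values below follow this order of libraries. The knockout is described as conditional in dendritic cells, and all groups were inoculated with tumour cells. The labels name no Cre driver, age or number of mice per library.

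Each group is 1 library, so no difference could be set against a spread between mice, no test between groups was possible and no p is given. Every interval below is a 95% interval that covers counting error only. The libraries kept 10372 to 12953 cells with a median of 2985 to 3067 unique molecular identifiers (UMIs, each 1 counted transcript) per cell, and 97.5% to 98.2% of the cells held a UMI of at least 1 of 5 T cell markers. Pairs of libraries shared 175 to 271 cell barcodes, and none of these belonged to dividing cells in both libraries. Cd274, which encodes PD-L1, stood at 68.4, 66.2, 84.6 and 84.8 UMIs per 1000000 UMIs (CPM) in the 4 libraries. It was not lower in the knockout libraries, but the sorted cells are T cells and the label places the deletion in dendritic cells, so this value does not check the genotype.

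The transcripts of these genes differ from other messenger RNAs. Most of the genes have no introns, and their transcripts end at a conserved stem-loop that is bound by the stem-loop binding protein Slbp in place of a poly(A) tail. They are made in bulk during S phase, when DNA is copied, and are degraded when replication stops, and some of the genes also give polyadenylated transcripts that run past the stem-loop in cells that do not divide. The labels name polyA RNA as the molecule sequenced, so the values below count the histone transcripts that this library type captured, and how completely it captured transcripts without a tail was not measured.

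The stem-loop was found in the annotated transcripts (GENCODE M21, GRCm38) of 46 of the 67 genes, in 8 forms, of which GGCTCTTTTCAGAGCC occurred in 26 genes, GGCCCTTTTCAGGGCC in 7 and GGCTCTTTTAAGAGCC in 6. The stem-loops of 7 genes on which the results below turn are shown with 5 bases on each side. They stand in the order Hist1h2ae (chr13:23570663-23570688, minus strand), Hist1h2bg (chr13:23571838-23571863, plus), Hist1h3c (chr13:23745042-23745067, minus), Hist1h1e (chr13:23621777-23621802, minus), Hist1h1c (chr13:23739507-23739532, plus), Hist3h2ba (chr11:58949344-58949369, plus) and Hist4h4 (chr6:136803993-136804018, minus). Capitals mark the 16 bases of the stem-loop.
Hist1h2ae: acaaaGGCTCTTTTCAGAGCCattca
Hist1h2bg: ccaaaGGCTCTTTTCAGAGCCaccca
Hist1h3c: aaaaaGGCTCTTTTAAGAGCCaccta
Hist1h1e: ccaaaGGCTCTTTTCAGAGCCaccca
Hist1h1c: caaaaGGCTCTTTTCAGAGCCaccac
Hist3h2ba: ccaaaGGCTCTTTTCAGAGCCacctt
Hist4h4: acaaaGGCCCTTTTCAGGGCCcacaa
Hist1h2ae, Hist1h2bg, Hist1h1e, Hist1h1c and Hist3h2ba carry the same 16 bases, although the share of their UMIs that came from dividing cells, given below, ran from 93.7% for Hist1h2ae to 10% for Hist3h2ba. Their annotated transcripts go on for different lengths after the stem-loop, 151 bases in Hist1h2ae, 155 in Hist1h2bg, 74 in Hist1h3c, 1153 in Hist1h1e, 840 in Hist1h1c, 169 in Hist3h2ba and 2445 in Hist4h4. The annotated transcript of Hist1h1b, the most abundant of these genes here, is 743 bases long and holds no stem-loop. An annotated transcript that ends too early would not hold it, so its absence there does not show that a gene lacks the stem-loop.

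Most of the genes lie in a cluster on chromosome 13, with 54 genes between positions 21715763 and 23934851, and 96.8% of all histone UMIs came from there. The 10 genes on chromosome 3 gave 2.53% of the UMIs, the 2 on chromosome 11 0.363% and Hist4h4 on chromosome 6 0.342%. Within the clusters, 12 H2A genes stand head to head with an H2B gene, with 175 to 305 bases between the annotated transcripts, so that both are read outwards from 1 short stretch of DNA. The 175 bases between Hist1h2ae and Hist1h2bg (chr13:23571221-23571395, GRCm38.p6, plus strand, towards Hist1h2bg) are shown because these partners were counted at very different levels, and the 200 bases before Hist1h1b (chr13:21780626-21780825, minus strand) are shown for comparison. Both come from the RefSeq promoter table. Capitals mark TATAAA (the TATA box), CCAAT (the CCAAT box) and TTTGCAT (the core of the octamer bound by Pou2f1), on either strand.
Hist1h2ae to Hist1h2bg: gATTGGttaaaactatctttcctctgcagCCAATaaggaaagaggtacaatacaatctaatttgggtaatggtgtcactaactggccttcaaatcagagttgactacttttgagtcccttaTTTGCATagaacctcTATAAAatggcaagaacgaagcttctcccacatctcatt
Hist1h1b: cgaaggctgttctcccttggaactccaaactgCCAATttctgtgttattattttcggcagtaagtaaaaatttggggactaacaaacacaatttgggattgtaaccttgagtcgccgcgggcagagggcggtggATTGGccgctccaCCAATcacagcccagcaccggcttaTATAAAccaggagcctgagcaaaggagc
RefSeq promoters were matched to 60 of the 67 genes, with 1 gene having an additional start. In the 250 bases before the start, CCAAT occurred in 82.0% of the 61 histone promoters against 33.8% of all 32851 promoters, TATAAA in 47.5% against 12.4% and TTTGCAT in 24.6% against 4.12%. TTTGCAT was found in 43.8% of the H2A and 41.2% of the H2B promoters, in 8.33% of the H4 promoters and in none of the H1 or H3 promoters, and CCAAT in every H1, H2A and H2B promoter, in 8 of 10 H3 promoters and in 3 of 12 H4 promoters. Head-to-head partners share much of these 250 bases and matches count on either strand, so a single site can count for both partners. The octamer core between Hist1h2ae and Hist1h2bg does so, and the H2A and H2B percentages are therefore not independent. These matches describe letters in the reference and say nothing about binding in these cells.

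Together the 67 genes gave 261536 UMIs. A mean of at least 2 CPM over the 4 libraries was reached by 42 genes, 25 lay below it, and the 4 genes Hist1h2aa, Hist1h2ba, Hist2h2bb and Hist3h2a had no UMI in any library. A UMI in every library was found for 60 genes. Counts were concentrated, with 60% of the UMIs in 3 genes and 84.5% in 12. Near-identical copies share sequence, and how the authors assigned reads that fit several copies is not stated in the sources. The 15 genes with fewer than 20% of their 60-base stretches to themselves among annotated transcripts had a median level of 0.598 CPM, against 5.59 CPM for the 29 genes with at least 60%, so the levels of the former may be split or moved between copies.

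The linker histones and 1 H2A gene led the list. Hist1h1b (ENSMUSG00000058773, chr13:21779883-21780625 on the minus strand), encoding a linker histone, was counted at 350, 242, 481 and 402 CPM. Hist1h2ae (ENSMUSG00000069272, chr13:23570517-23571220, minus strand), encoding an H2A, was counted at 306, 225, 375 and 336 CPM, and Hist1h1e (ENSMUSG00000051627, chr13:23620629-23622558, minus strand), encoding another H1, at 225, 158, 259 and 236 CPM. The annotated span of Hist1h1e overlaps that of Hist1h2be on the same strand, so reads there may be shared. WT-DOX was the lowest and KO-CTRL the highest library for all 3. Hist1h3c, the leading H3 gene, stood at 81.5, 47.4, 78.5 and 74.3 CPM and Hist1h2an at 72.6, 41.8, 79.8 and 67.2 CPM, the latter with only 14.7% of its 60-base stretches its own. Hist1h1c, another linker histone gene, had the lowest ratio of highest to lowest library among the 12 most abundant genes, at 41.4, 39.3, 52.5 and 50.9 CPM. Of the other H1 genes, Hist1h1a stood at 37.2, 34.2, 54.6 and 42.3 CPM and Hist1h1d at 33.2, 23.3, 50.5 and 41.8 CPM. The H2A genes Hist1h2ab and Hist2h2ac stood at 30.4, 19.5, 43.3 and 32.5 CPM and at 25.9, 18.9, 34.7 and 28.8 CPM. These 4 again had their lowest library in WT-DOX and their highest in KO-CTRL. Hist1h2ai, an H2A gene with 10.2% own stretches, stood at 24.1, 11.98, 29.9 and 30.4 CPM, and the H3 gene Hist1h3e at 19.7, 16.7, 30.9 and 24.1 CPM. Per kilobase of annotated transcript the mean levels over the 4 libraries were 496 CPM for Hist1h1b, 441 for Hist1h2ae, 166 for Hist1h2an, 114 for Hist1h1e, 112 for Hist1h3c and 29.5 for Hist1h1c. The reads start at the 5′ end and each UMI is 1 transcript of any length, so these values do not correct the levels. Their order also follows the annotated lengths, such as 1930 bases for Hist1h1e and 393 for Hist1h2an.

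**Figure D1:**
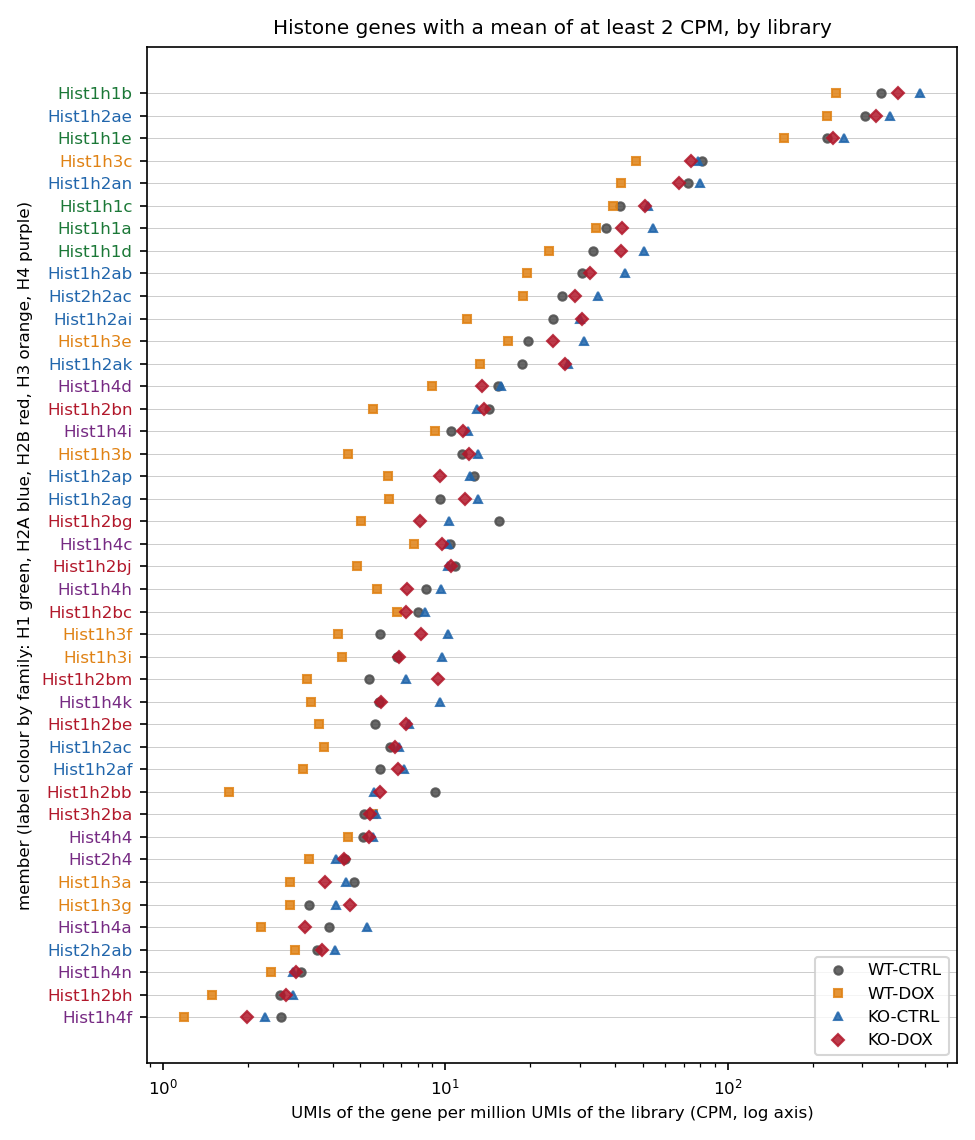
Level of the 42 histone genes with a mean of at least 2 CPM, in CPM on a log axis, with 1 point for each library and gene names coloured by family. The WT-DOX squares stand furthest left for 41 of the 42 genes, all but Hist3h2ba, and Hist1h2bb has its highest point in WT-CTRL.

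The families were not counted in the ratios of a nucleosome. H1 genes gave 45.9% to 48.7% of the histone UMIs in the 4 libraries and H2A genes 34.5% to 34.8%, while H3 gave 8.27% to 9.24%, H4 4.17% to 4.87% and H2B 3.99% to 5.41%. In 9 of the 12 head-to-head pairs the H2A partner was counted higher, in 2 the H2B partner, and in 1 neither was detected. Hist1h2ae had a mean of 311 CPM and its partner Hist1h2bg, 175 bases away, 9.74 CPM, a ratio of 31.9. Hist2h2ac had 27.1 CPM and its partner Hist2h2be 1.10 CPM, and both of these have over 70% of their stretches to themselves, so their difference is less open to sharing between copies. Hist1h2ac and its partner Hist1h2bc also have over 70% each, and they went the other way, at 5.89 against 7.62 CPM.

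Most of this signal came from few cells. A cell was called dividing when it held UMIs of at least 4 of the 8 division markers Mki67, Top2a, Birc5, Cdk1, Ccna2, Ube2c, Nusap1 and Cenpf. Dividing cells were 221 of 12819 in WT-CTRL (1.72%, 1.51 to 1.96) and 158 of 12434 in WT-DOX (1.27%, 1.08 to 1.48). With the knockout they were 265 of 12953 in KO-CTRL (2.05%, 1.81 to 2.30) and 234 of 10372 in KO-DOX (2.26%, 1.98 to 2.56). The live T cell sort can set these shares. They held 84.2%, 79.1%, 88.9% and 85.7% of the histone UMIs. The summed histone level in the dividing cells was 12976 CPM (12871 to 13082) in WT-CTRL and 11192 (11075 to 11310) in WT-DOX. With the knockout it was 13357 CPM (13263 to 13452) in KO-CTRL and 11378 (11281 to 11476) in KO-DOX. In all other cells it was 263, 231, 234 and 265 CPM, lower by factors of 49.4, 48.4, 57.1 and 43.0. Dividing cells had a median of 20 to 23 of the 67 genes detected, and other cells a median of 0. Dividing cells were also deeper, with a median of 17125 to 18749 UMIs. When each cell was thinned to 1500 UMIs, 91.1% to 93.5% of dividing cells and 23.4% to 26.4% of other cells kept a histone UMI.

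A low count outside dividing cells was common. At least 1 histone UMI was found in 46.1%, 40.8%, 41.8% and 45.1% of all cells, and after thinning to 1500 UMIs, which left out 974 to 1353 shallower cells per library, in 27.3%, 24.4%, 25.5% and 28.1%. Among cells with no UMI of any division marker or of any of 24 S phase markers, the thinned shares were 24.9%, 21.8%, 21.1% and 25.8%. These shares were nearly as high as in all cells, so a single histone UMI did not separate dividing cells from others. In these marker-free cells the summed level was 230, 191, 185 and 217 CPM. Free RNA in the droplets can give such counts, and its part in them was not tested. The ratio of the level in dividing to that in other cells differed between genes and was 349 for Hist1h3c and 0.985 for Hist3h2ba.

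Genes differed widely in how far dividing cells held their UMIs. Of the 53 genes with at least 100 UMIs, 30 had at least 80% of them in dividing cells, 16 had 50% to 80% and 7 had less than 50%. The highest shares were those of Hist1h3c (97.5%), Hist1h1b (96.8%) and Hist1h2ab (96.2%). Hist1h3c was found in 77.8% to 84.6% of dividing cells and in 0.269% to 0.889% of other cells. At the other end, Hist2h2be had 7.33% of its UMIs in dividing cells, Hist3h2ba 10% and Hist4h4 34.0%. Hist3h2ba, an H2B gene outside the large cluster, was counted at 3.78, 7.69, 6.23 and 3.91 CPM in dividing cells and at 5.31, 5.39, 5.59 and 5.64 CPM in other cells, with no more than 4 UMIs in any cell. It was the only one of the 42 genes for which WT-DOX was not the lowest library over all cells. Hist1h1c lay between, with 156, 152, 181 and 163 CPM in dividing cells and 29.2, 30.5, 34.4 and 35.2 CPM in other cells.

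**Figure D2:**
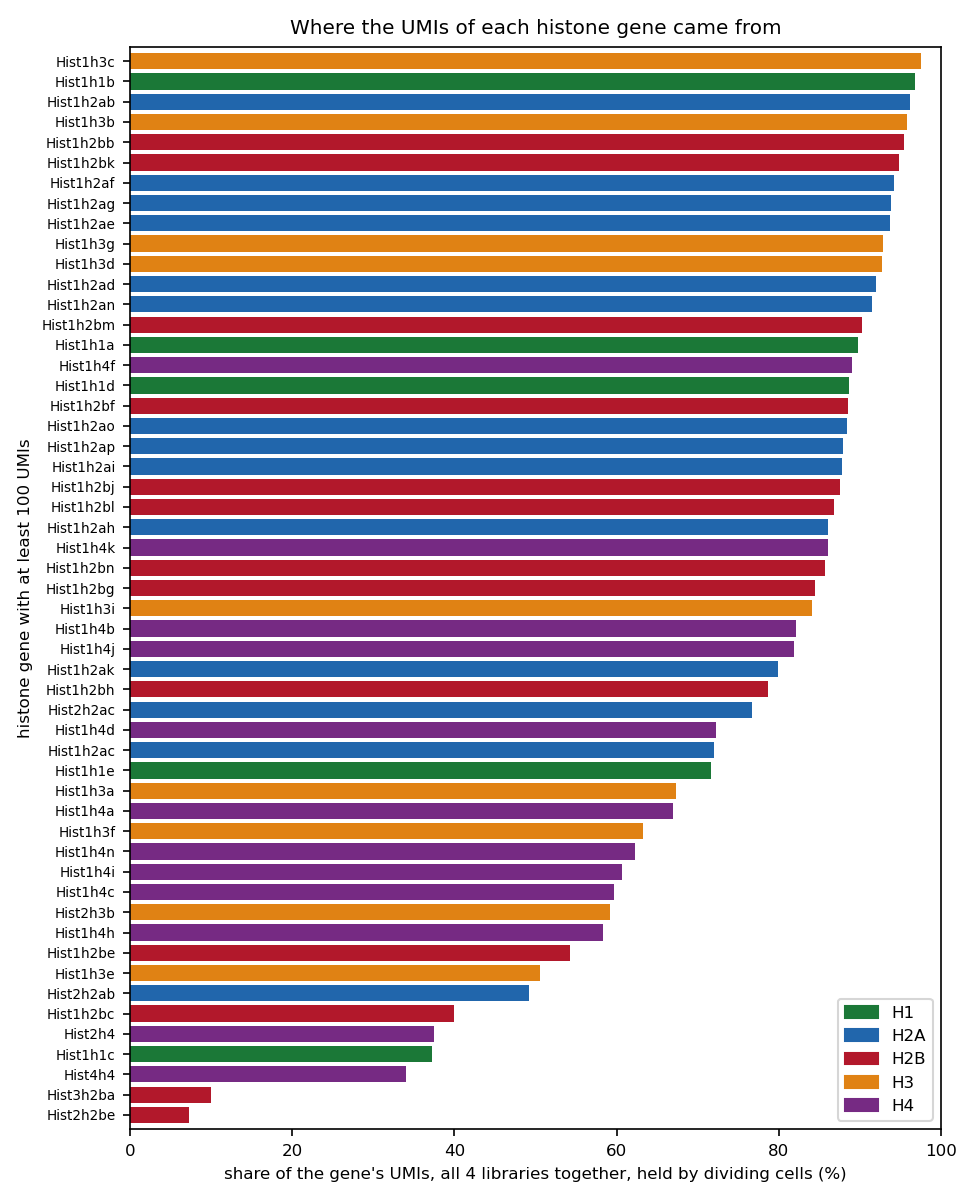
Share of the UMIs of each histone gene, over the 4 libraries together, that dividing cells held, in percent, for the 53 genes with at least 100 UMIs, coloured by family. Bars run from 97.5% for Hist1h3c to 7.33% for Hist2h2be, and genes of every family except H3 fall below 50%.

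The share differed between genes grouped by whether the annotated transcript runs 100 bases or more past the stem-loop. Among genes with at least 100 UMIs, the 19 whose annotated transcript ends within 100 bases after the stem-loop had a median of 89.0% of UMIs from dividing cells, and 4 of them lay under 80%. The 19 whose transcript runs 100 bases or more past it had a median of 66.9%, and 14 lay under 80%. Within these 19 the share did not follow the length, with 93.7% in Hist1h2ae at 151 bases, 10% in Hist3h2ba at 169, 37.2% in Hist1h1c at 840 and 71.7% in Hist1h1e at 1153. The 15 with no stem-loop in the annotated transcript had a median of 86.0%, and 5 lay under 80%. Some of these annotated transcripts are short, such as 312 bases for Hist1h4k and 393 for Hist1h2an, and may end before a stem-loop. Others are long, such as 2620 bases for Hist2h2be, so this group is one of annotation and not of genes known to lack it. The reads start at the 5′ end, so the libraries do not show which end the counted molecules had. The families also made up different parts of the signal, with H2A giving 36.4% to 37.9% of histone UMIs in dividing cells and 18.2% to 23.1% in marker-free cells, and H4 3.01% to 3.55% and 11.3% to 13.2%.

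Within dividing cells the level was lower where few S phase markers were detected. With 0 to 6 of the 24 S phase markers (genes of the replicative helicase, nucleotide supply and origin licensing, such as Mcm2 and Rrm2) dividing cells stood at 2571, 1240, 8071 and 5777 CPM, from 26, 14, 20 and 30 cells. Single cells carried much of these values. In KO-DOX 1 cell held 39.4% of the histone UMIs of its 30 cells, and the level was 3612 CPM without it, and in KO-CTRL 4 cells held 71.4%. With 7 to 12 markers dividing cells stood at 10884, 5447, 8689 and 9213 CPM, which in KO-CTRL was close to the 8071 CPM with 0 to 6. With 13 to 18 markers they stood at 15568, 10588, 13920 and 11788 CPM, and with 19 to 24 markers at 12879, 12809, 13915 and 11820 CPM. The level thus did not rise at every step in every library. Cells with at least 7 S phase markers that were not dividing by the rule, 107 to 119 per library, had only 685, 817, 726 and 888 CPM. Depth moved with the number of markers, with median UMIs of 1744 to 8823 in dividing cells with 0 to 6 markers and 22512 to 27717 in those with 19 to 24, and its part was not tested.

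**Figure D3:**
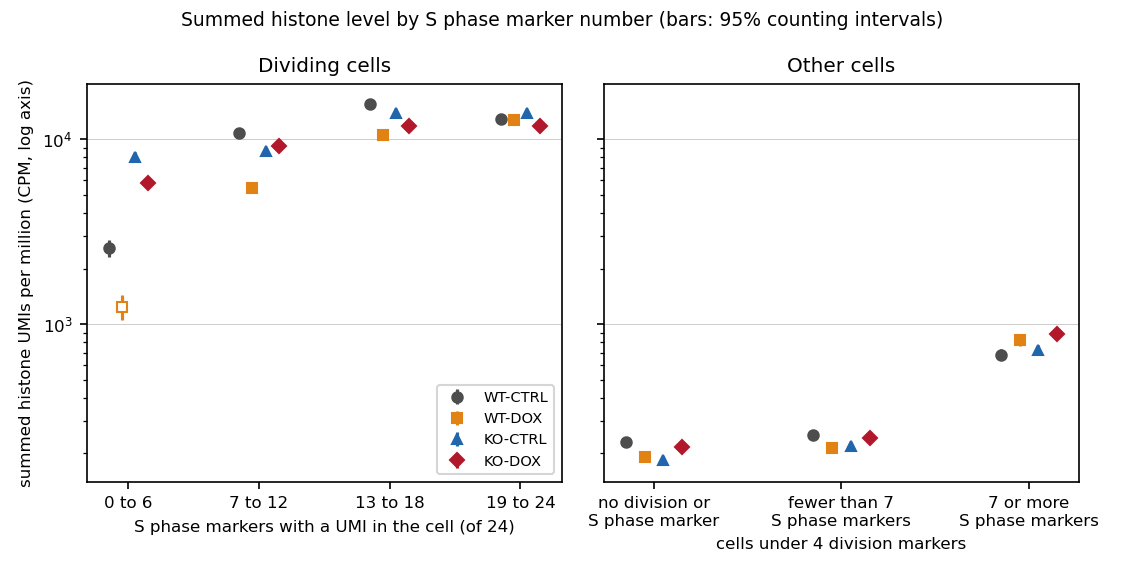
Summed histone level, in CPM on a log axis, by the number of S phase markers detected, in dividing cells (left) and other cells (right), with 95% counting intervals, and an open symbol for the 1 group of fewer than 20 cells. Dividing cells with at least 13 markers lie between 10588 and 15568 CPM in the 4 libraries, and other cells with 7 or more lie between 685 and 888 CPM.

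A few cells carried large parts of single genes. Cells with at least 100 histone UMIs numbered 126, 88, 158 and 132 and held 80.2%, 74.8%, 85.3% and 80.6% of the histone UMIs, and 38 to 54 cells made up 50% of them in each library. The largest counts of 1 gene in 1 cell were 444 for Hist1h1b, 301 for Hist1h2ae, 262 for Hist1h1e, 237 for Hist1h3e and 204 for Hist1h2bg. The cell with the most histone UMIs, in WT-CTRL, held 2645 of its 44926 UMIs (5.89%) in 51 of the genes, against 1334 in the next cell. H2B genes made up 30.8% of its histone UMIs. It alone held 174 UMIs of Hist1h2bb, 40.9% of that gene in WT-CTRL, and 28.5% of Hist1h2bg. It carried 48 UMIs of Cd3d, Cd3e and Cd3g and 30 of Cd8a and Cd8b1, with 1 of Cd4 and none of 6 B cell markers, and its Scrublet doublet score was 0.0624.

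That cell was not the only one of its kind. In dividing cells with at least 100 histone UMIs the median H2B share was 2.05%, 1.67%, 1.97% and 2.44%. Of 498 such cells, 27 had an H2B share of 10% or more, namely 5, 2, 9 and 11 in the 4 libraries, up to 49.4% in 1 WT-CTRL cell. The limit of 10% was set after the shares were seen and cuts a range, with 9 cells between 8% and 12%, the nearest at 9.41% outside and 10.4% inside. These 27 cells held 41.4%, 9.88%, 25.5% and 31.4% of all H2B UMIs of their libraries but only 7.08%, 1.23%, 6.41% and 8.44% of the histone UMIs. All 27 carried a T cell marker, none held B or plasma cell markers at the limits used here, and none had a doublet score above 0.185.

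Since these cells were chosen by H2B share, their H2B level is part of the choice, and what follows is a description with no test. Their H2B genes stood at 6537 CPM together against 391 CPM in the other 471 cells. The pooled H1 level was 8630 against 8605 CPM and the pooled H2A level 8665 against 6647 CPM, with ratios of 0.553 to 1.32 and 0.525 to 1.88 by library. H3 genes were 2.81-fold higher, at 4028 against 1431 CPM, and H4 genes 4.05-fold higher, at 2026 against 500.5 CPM. In WT-DOX, with only 2 such cells, H3 and H4 ratios were 1.89 and 1.62, and in the other libraries 2.61 to 3.16 and 2.92 to 5.56. The summed level per cell group was 38286 against 17633 CPM in WT-CTRL, 16492 against 16870 in WT-DOX, 25784 against 19396 in KO-CTRL and 31416 against 15698 in KO-DOX.

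Hist1h1b, Hist1h2ae and Hist1h1e were the 3 most abundant histone genes in the 27 cells as in the other 471, with no higher level of the first 2 than there. Hist1h1b was counted at 4423 CPM in them against 5160 CPM in the other cells, Hist1h2ae at 3642 against 4197 CPM, Hist1h1e at 2290 against 2217 CPM and Hist1h3c at 1027 against 978 CPM. Hist1h2bg, the partner of Hist1h2ae, was counted at 1415 against 56.7 CPM, Hist1h2bb at 1036 against 30.8 CPM and Hist1h2bn at 1596 against 74.3 CPM. Outside H2B, and named here after their values were seen, Hist1h4a was 20.8-fold and Hist1h3f and Hist1h4h each 13.2-fold higher. These ratios pool UMIs over cells, and single cells carried large parts of some. The WT-CTRL cell with the most histone UMIs held 34 of the 196 Hist1h4a UMIs of the 27 cells. It also held 31 of their 290 Hist1h3f and 90 of their 294 Hist1h4h UMIs. Counting genes with at least 100 UMIs over the 498 cells, 5 of 9 H3 genes, 2 of 11 H4, 2 of 13 H2A and 0 of 5 H1 genes were at least 5-fold higher. The S phase markers differed little, with ratios of 0.533 to 1.43 and a median of 1.05, and all 8 division markers were lower, at 0.527 to 0.812 of the level in the other cells. In 4 of the 12 head-to-head pairs the H2B partner exceeded the H2A partner in the 27 cells, and in 1 in the others. Median depth differed in no single direction, with 18647 against 20365 UMIs in WT-CTRL, 16463 against 20369 in WT-DOX, 25301 against 21920 in KO-CTRL and 11881 against 19103 in KO-DOX.

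**Figure D4:**
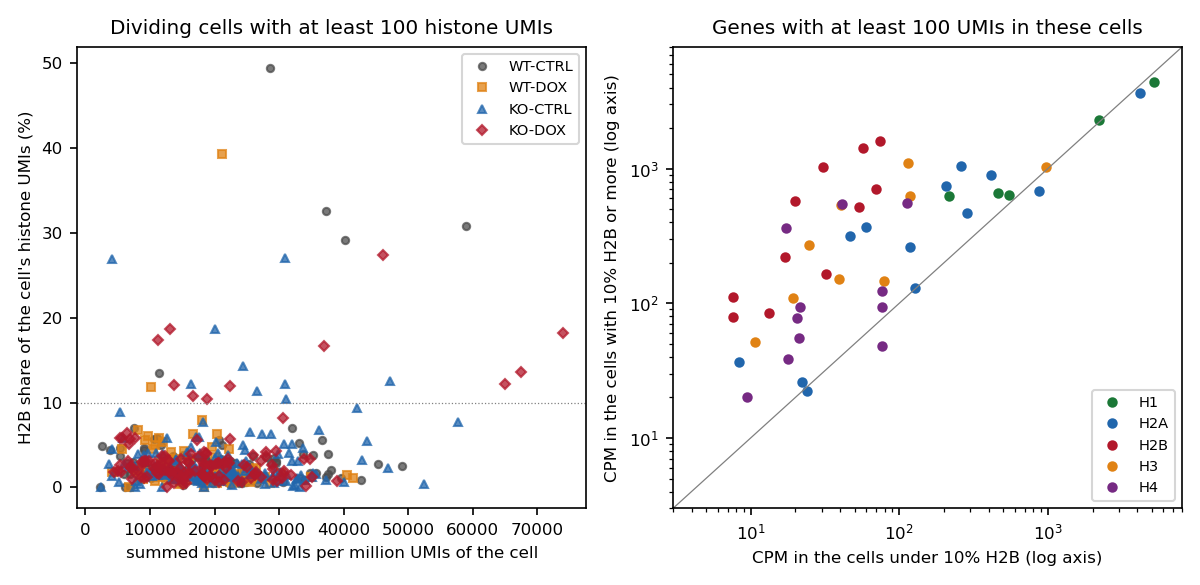
Left, H2B share of the histone UMIs in percent against the summed histone level in CPM, for each of the 498 dividing cells with at least 100 histone UMIs, with the 10% limit dotted. Right, level of each histone gene in the 27 cells above the limit against the other 471 cells, in CPM on log axes with the line of equality; H2B genes lie above it by selection, many H3 and H4 genes lie above it too, and the 3 most abundant genes lie near it.

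Doxorubicin in the control genotype went with a lower summed histone level, 1027 CPM in WT-DOX against 1497 CPM in WT-CTRL, a ratio of 0.686 (0.678 to 0.694). Of the 42 genes with a mean of at least 2 CPM, 22 were lower by at least 0.58 log2 units (1.5-fold) and none was higher by that size, against 1.39% lower and 0.277% higher of all 10486 genes compared. The median log2 ratio, on CPM plus 0.1, was -0.61 over the 42 genes and -0.02 over all genes. The largest differences were those of 3 H2B genes. Hist1h2bb was counted at 9.18, 1.72, 5.59 and 5.85 CPM in the 4 libraries (log2 ratio -2.35). Hist1h2bg was counted at 15.5, 5.05, 10.3 and 8.13 CPM (-1.60) and Hist1h2bn at 14.3, 5.56, 12.96 and 13.8 CPM (-1.35). For all 3, WT-DOX was the low library and WT-CTRL the high one. Without the 1 cell of each library with the most histone UMIs these ratios were -1.62, -1.15 and -1.12, and without the 27 cells rich in H2B they were -0.95, -0.61 and -0.72, with 11 genes lower in place of 22. Hist3h2ba (0.10), Hist1h1c (-0.08) and Hist1h1a (-0.12) stood at the other end. Summed by family, the ratio was 0.723 for H1, 0.682 for H2A, 0.614 for H3, 0.703 for H4 and 0.506 for H2B, and 0.777 for H2B without the 27 cells.

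The number of dividing cells moved with this difference. WT-DOX had 0.737 times the share of dividing cells of WT-CTRL, and 3 of the 8 division markers were lower by 0.58 log2 units, Mki67 by a log2 ratio of -0.69. Without dividing cells, 22 histone genes reached 2 CPM and none passed 0.58 log2 units in either direction, beside 0.678% lower and 0.281% higher of all genes, and the summed ratio was 0.881 (0.857 to 0.906). Within dividing cells the summed ratio was 0.863 (0.851 to 0.874), and 17 of 53 genes were lower and 1 higher, beside 5.42% and 5.66% of all genes. That 1 is Hist3h2ba, at 3.78 and 7.69 CPM. Dividing cells held only 10% of its 950 UMIs over the 4 libraries, so this difference rests on few UMIs. Without the 27 cells rich in H2B the log2 ratio of the sum within dividing cells was -0.14 in place of -0.21. Both the share of dividing cells and the level within them were thus lower in WT-DOX, and the median level per dividing cell stood at 0.811 times that of WT-CTRL.

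In the knockout genotype the same contrast was smaller. KO-DOX had 1620 CPM against 1846 in KO-CTRL, a ratio of 0.878 (0.869 to 0.887), and 2 of 42 genes were lower and none higher, beside 0.458% and 0.553% of all genes. The 2 were Hist1h4a (5.29 and 3.18 CPM in KO-CTRL and KO-DOX, log2 ratio -0.72) and Hist1h4k (9.60 and 5.91 CPM, -0.69). In KO-CTRL 1 cell held 34.1% of the Hist1h4a UMIs and 1 cell 30.3% of the Hist1h4k UMIs. Without the 27 cells rich in H2B the ratios were -0.10 and -0.72. Those 27 cells together held only 26 Hist1h4k UMIs, so the cell with 30.3% of that gene was not among them. The value of -0.72 therefore still contains that cell, and the Hist1h4k ratio without it was not computed. Hist1h3i followed (-0.50), and Hist1h2bm (0.37), Hist1h3g (0.16) and Hist2h4 (0.10) were the highest. With all cells weighted equally the direction of the summed log2 ratio turned, from -0.19 to 0.10, and none of the genes was lower by this size. The share of dividing cells was 1.10 times that of KO-CTRL. Within dividing cells the summed ratio was 0.852 (0.842 to 0.861), with 5 of 53 genes lower and 3 higher beside 4.23% and 3.65% of all genes, and without dividing cells it was 1.13 (1.10 to 1.16), with none of 22 genes past the limit beside 0.3% lower and 0.64% higher. Within dividing cells, then, the doxorubicin ratio of the sum was 0.863 in one genotype and 0.852 in the other. On the log2 scale the doxorubicin ratio differed between the genotypes by 0.36 over all cells, by 0.36 without dividing cells and by -0.02 within them, values that were not tested.

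Split after values were seen, dividing CD8 cells had a lower level with doxorubicin in both genotypes. The ratios of dividing CD4 cells lay on both sides of 1, depending on genotype and on which cells were kept. The difference between CD4 and CD8 cells was not tested. Cells were called CD8 by at least 2 UMIs of Cd8a and Cd8b1 with none of Cd4, and CD4 by a Cd4 UMI with none of the others. Dividing cells that met neither rule are not in this split. Among them is the WT-CTRL cell with 2645 histone UMIs, which had 30 UMIs of Cd8a and Cd8b1 and 1 of Cd4. Dividing CD8 cells stood at 13082, 8642, 12323 and 10405 CPM, from 100, 69, 103 and 103 cells. The doxorubicin ratio was 0.661 (0.647 to 0.675) in the control genotype and 0.844 (0.831 to 0.858) in the knockout. Dividing CD4 cells stood at 14040, 15210, 14241 and 14309 CPM, from 55, 51, 91 and 75 cells, with ratios of 1.08 (1.06 to 1.11) and 1 (0.986 to 1.02). Leaving out the cells rich in H2B gave 0.659 and 0.815 for CD8 and 1.10 and 0.959 for CD4 cells. In the control genotype this left all 100 CD8 cells of WT-CTRL and 68 of 69 in WT-DOX, so it could hardly move that CD8 ratio. In cells with at least 13 S phase markers the ratios were 0.705 and 0.836 for CD8 and 1.13 and 0.933 for CD4 cells. The CD8 libraries had median S phase marker numbers of 19, 19, 21 and 20 and median depths of 16105, 19267, 24824 and 20951 UMIs, whose part in the result was not tested. Dividing cells with a Foxp3 UMI, Foxp3 being the factor that defines regulatory T cells, stood at 13165, 14955, 15134 and 12346 CPM.

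Knockout against control genotype, without doxorubicin, gave a higher summed level, a ratio of 1.23 (1.22 to 1.245), with 4 of 42 genes higher and 2 lower beside 0.677% and 0.315% of all genes. With all cells weighted equally the summed log2 ratio turned from 0.30 to -0.13, with 0 genes higher and 3 lower. This comparison and the next share libraries with those above. Hist1h3f (5.85 CPM in WT-CTRL and 10.2 in KO-CTRL, log2 ratio 0.80), Hist1h4k (0.71) and Hist1h3e (0.65) were the highest, and Hist1h2bb (-0.71), Hist1h2bg (-0.58) and Hist1h4f (-0.18) the lowest. The largest single cells bore on these as well. In KO-CTRL 1 cell held 237 UMIs, 16.3%, of Hist1h3e, and without the 27 cells rich in H2B the ratios of Hist1h3f, Hist1h3e, Hist1h2bb and Hist1h2bg were 0.47, 0.35, 0.39 and 0.10, so that 3 genes were higher and 0 lower. The KO-CTRL cell with the large part of the Hist1h4k UMIs, described above, is not among these 27. The Hist1h4k ratio of 0.71 contains that cell and was not computed without it. The share of dividing cells was 1.19 times that of WT-CTRL. The summed ratio was 1.03 (1.02 to 1.04) within dividing cells, with 3 of 53 genes higher and 4 lower beside 4.14% and 4.17% of all genes. Without dividing cells it was 0.892 (0.868 to 0.917), the opposite direction, with 1 of 22 genes lower, Hist1h1b, and none higher, beside 0.31% and 0.533%.

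Under doxorubicin the knockout had the higher level by a ratio of 1.58 (1.56 to 1.60). Of 42 genes, 27 were higher and none lower, beside 2.55% and 0.429% of all genes, with a median log2 ratio of 0.67 over the 42 genes and 0.03 over all. Hist1h2bb (1.71), Hist1h2bm (1.51) and Hist1h3b (1.40) led, and Hist3h2ba (-0.03), Hist1h2bc (0.11) and Hist4h4 (0.24), 3 genes with at most 40% of their UMIs in dividing cells, were the lowest. KO-DOX had 1.78 times the share of dividing cells of WT-DOX, and 7 of the 8 division markers and 4 of the 24 S phase markers were higher by 0.58 log2 units. Without the 27 cells rich in H2B, 14 genes were higher. Within dividing cells the summed ratio was 1.02 (1.003 to 1.03), with 13 of 53 genes higher and 3 lower beside 4.35% and 6.15% of all genes. Without the cells rich in H2B its log2 value turned from 0.024 to -0.066. Without dividing cells the summed ratio was 1.14 (1.11 to 1.18), with none of 22 genes past the limit beside 1.33% higher and 0.339% lower.

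**Figure D5:**
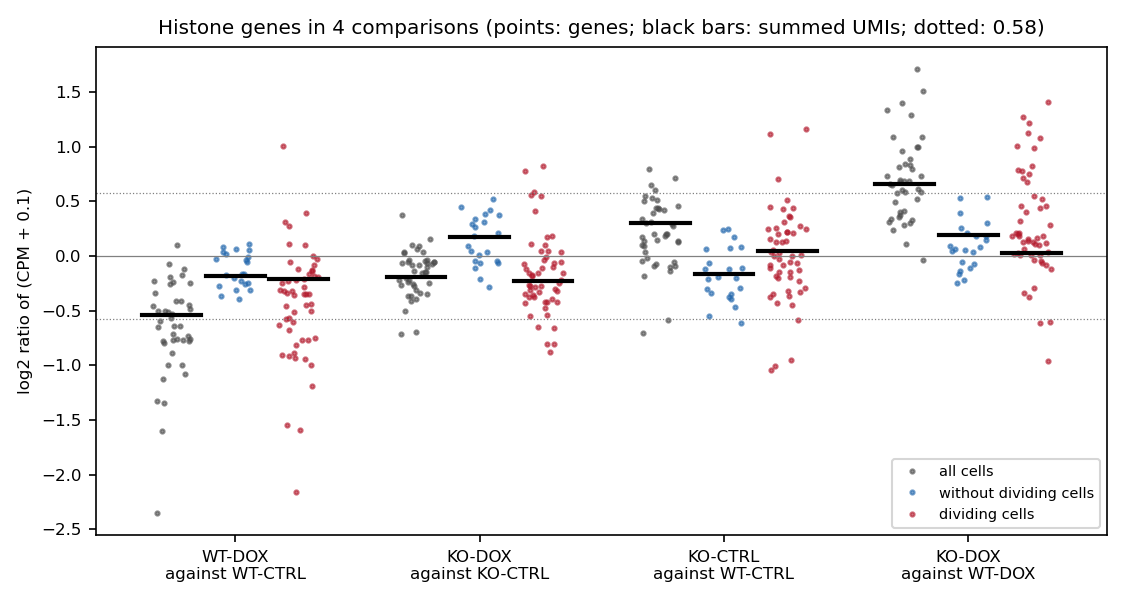
Log2 ratio of (CPM + 0.1) in the 4 comparisons for each histone gene with a mean of at least 2 CPM in all cells (grey, 42 genes), without dividing cells (blue, 22 genes) and in dividing cells (red, 53 genes), with black bars for the summed UMIs and dotted lines at 0.58 log2 units. Without dividing cells the genes lie between -0.61 and 0.53 over the 4 comparisons, and the bars in dividing cells stand at -0.21, -0.23, 0.04 and 0.02.

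Markers of other cell types in dividing cells differed between libraries. The 4 plasma cell markers Jchain, Mzb1, Sdc1 and Xbp1 summed to 150, 48.1, 457 and 320 CPM in dividing cells of the 4 libraries, with a UMI of any in 46.6% to 50% of these cells. The 6 B cell markers summed to 10.9, 22.1, 43.8 and 16.9 CPM there, the 5 myeloid or dendritic markers to 87.1 to 107 CPM and the 3 NK markers to 1.56 to 8.47 CPM. Cells with at least 2 B cell or 3 plasma cell markers made up 1, 4, 8 and 1 of the dividing cells. Without them the log2 ratios of the sum in dividing cells were -0.21, -0.23, 0.04 and 0.03, and over all cells -0.57, -0.15, 0.27 and 0.68, in the order in which the comparisons were given.

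Over all cells, no listed gene of other histones or of histone handling passed 0.58 log2 units at a mean of at least 2 CPM. Some came close. Of 11 genes listed as replication-independent histones, most of which are used throughout the cell cycle, 9 were measured over all cells and none differed by 0.58 log2 units in any of the 4 comparisons. H3f3b and H3f3a, which both encode H3.3, had means of 1549 and 697 CPM and 9.11% and 12.2% of their UMIs in dividing cells. H2afz, encoding H2A.Z, had 496 CPM and 45.2%, and H2afx, encoding the DNA damage histone H2A.X and known for both a stem-loop and a polyadenylated transcript, 73.5 CPM and 48.9%. Of 21 genes that regulate or process histone transcripts 20 were measured, and of 18 histone chaperones 18, and none of either list passed the size in any comparison over all cells. Slbp had a mean of 107 CPM with a log2 ratio of -0.18 in WT-DOX against WT-CTRL, and Npat, the histone cluster activator, 44.3 CPM and -0.08. Some genes with many UMIs in dividing cells lay just under the size. H1f0 stood at -0.52 in WT-DOX against WT-CTRL and 0.53 in KO-DOX against WT-DOX, and the histone gene regulator Ccne2 at -0.57 and 0.51. In KO-DOX against WT-DOX the regulator E2f1 and the chaperone Chaf1a stood at 0.55 and the chaperone Asf1b at 0.51. H2afx and H2afz moved less there, at 0.12 and 0.28. The 3 lists had medians between -0.10 and 0.12 in the 4 comparisons. In the parts of the cells some of their genes passed the size, at most 1 per list and direction in each comparison. Without dividing cells the linker histone gene H1f0 was higher in KO-DOX than in WT-DOX, at 24.4 against 15.5 CPM (log2 ratio 0.65). In dividing cells H1fx, another linker histone gene, was lower in WT-DOX than in WT-CTRL, at 1.28 against 6.01 CPM (-2.14). Its mean over all cells was 0.354 CPM, under the limit of 2 CPM, so this ratio rests on few UMIs. For the same reason its ratios over all cells, -1.43, 0.69, -1.40 and 0.72 in the 4 comparisons, were not counted above.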

How the data were processed

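Per the labels, live T cells were sorted from draining lymph nodes and made into SeekOne DD 5′ libraries of polyA RNA. The authors deposited UMI counts for each gene and barcode, and the submitters' processing notes name mm10. No aligner, cell caller or rule for reads that fit several genes is stated there. Barcodes were kept from 300 detected genes upwards, up to 10% mitochondrial UMIs. Scrublet scores (scanpy 1.11.5) were computed per library, 1.91% to 2.86% of cells scored above 0.25, and doublets were left out only as an alternative. UMIs were summed over cells and divided by their total (CPM), with exact Poisson and Clopper-Pearson intervals at 95%. All 32285 genes went through the same comparison, log2 of CPM plus 0.1 over genes with a mean of at least 2 CPM, and 0.58 log2 units counted as a difference of size, not a test. The calculation (Python 3.11.15, numpy 2.4.6, scipy 1.17.1, pandas 2.3.3) was tested on simulated data. Gene models came from GENCODE M21 and promoters from RefSeq (GRCm38.p6), with symbols matched through RefSeq synonyms. Members and lists were chosen with earlier results of these data known. S phase bins, the limit of 10% H2B and the CD4 and CD8 split in dividing cells were set after values were seen. Named by rule were the 12 genes with the highest mean, the 3 largest and smallest ratios of each comparison, the 5 largest single-cell counts and the 3 highest and lowest shares from dividing cells; others are named for identity or as stated.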

Additional observations from a re-analysis of the deposited data

Results flagged for a closer look

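Hist1h2bm, an H2B gene, was flagged because its difference with doxorubicin pointed in opposite directions in the genotypes. It was not alone in this, as 41 of 42 genes lay below 0 in the control genotype and 34 of 42 in the knockout. The log2 ratio of Hist1h2bm was -0.71 in WT-DOX against WT-CTRL, at 3.23 and 5.36 CPM, and 0.37 in KO-DOX against KO-CTRL, at 9.40 and 7.24 CPM. In KO-DOX 1 cell held 24.5% of its UMIs, and without the 1 cell of each library with the most histone UMIs the ratios were -0.63 and -0.03. With 1 library in each group the difference was not tested.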

How the results depend on the processing

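With 1 library per group no replicate could be left out. No paired analysis was possible because each group is 1 library and no test was made. Ratios are log2 ratios of summed UMIs, and the comparisons follow the report, doxorubicin in the control genotype (the first) and in the knockout (the second), then knockout over control genotype untreated (the third) and under doxorubicin (the fourth), where the values reported are -0.54, -0.19, 0.30 and 0.66. Without dividing cells they were -0.18, 0.18, -0.17 and 0.19, so that the second and the third turned direction. With each cell at the same weight they were -0.60, 0.10, -0.13 and 0.58, and the second and the third turned again. Without cells holding 2 or more B cell markers they were -0.57, -0.15, 0.27 and 0.68, and without B or plasma cell marker cells, an alternative chosen after seeing the data, -0.57, -0.15, 0.27 and 0.68. Median-of-ratios scaling gave -0.52 for the first and 0.63 for the fourth. For the third, leaving out the cell with the most histone UMIs gave 0.33 and the stricter cell filter 0.32. Without the 27 H2B-rich cells, also chosen after seeing the data, the first, the second and the fourth were -0.46, -0.22 and 0.55. Within dividing cells, leaving out the top cell gave -0.19, -0.25 and 0.082 for the first 3, and leaving out H2B-rich cells gave -0.14, -0.28, 0.074 and -0.066, the last turned from 0.024. In 13 of 36 alternatives over all cells the sum moved by less than its counting interval.

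Genes lower, reported as 22, 2, 2 and 0, were 0, 0 and 1 without dividing cells in the first 3 comparisons. In the second they were 0 with equal weights, 1 at 5 CPM and 9 at 0.32 log2 units. In the third they were 0 without the top cells and without H2B-rich cells, and 1 with the stricter filter, with median-of-ratios scaling and with a pseudocount of 1 CPM. In the first they were 11 without H2B-rich cells. Genes higher, reported as 0, 0, 4 and 27, were in the second 5 with no filter on low values and 1 at 0.32 log2 units, and in the third 0 without dividing cells, 7 without the top cells, 0 with equal weights, 7 with no filter and 15 at 0.32 log2 units. In the fourth they were 0 without dividing cells, 14 with equal weights and 14 without H2B-rich cells. The share of cells with a histone UMI was 27.3%, 24.4%, 25.5% and 28.1% after thinning, and 45.2%, 40.5% and 43.9% without dividing cells in WT-CTRL, KO-CTRL and KO-DOX. The level in dividing over other cells was 50.1 in WT-DOX with 3 or more division markers, and 53.1 in KO-CTRL and 40.4 in KO-DOX with 5 or more. Leaving out the cell with the most histone UMIs of each S phase bin, also chosen after seeing the data, moved the level by more than 1.5 times in 1 bin, KO-DOX with 0 to 6 markers, from 5777 to 3612 CPM.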
